A study of Mus musculus with 5 samples.

Results

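The immediate early genes described here are 10 mouse genes, Egr1, Egr2, Egr3, Fos, Fosl1, Jun, Junb, Jund, Ier2 and Ier3, measured on single-colour Illumina bead arrays. They were chosen by name, as all probes that the platform annotation assigns to these symbols, and each gene had 1 probe among the 25697 on the array. The samples were total RNA from 46C, a mouse embryonic stem cell line with a green fluorescent protein reporter for Sox1. The ESC group (n = 2) grew on gelatin without feeders or serum, in the defined medium N2B27 with LIF, BMP and the FGF receptor inhibitor PD173074 at 100 nM, a state labelled pluripotent. In the N2B27 48 hr group (n = 3) trypsinized and washed cells of that line were replated and kept for 48 hr in N2B27 alone, so LIF, BMP and the inhibitor were withdrawn together and their parts cannot be told apart. All 5 samples are 1 line and shared the N2B27 base. The labels do not say whether the replicates were separate cultures, so the p-values here reflect spread among samples that may be technical replicates.

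Immediate early genes are transcribed within minutes of a signal without new protein synthesis. The classical route runs from a growth factor receptor through RAS, RAF, MEK and ERK to the ternary complex factors of the ETS family, which sit with serum response factor (SRF) on the promoters of Egr1 and Fos. FOS proteins pair with JUN proteins to form the transcription factor AP-1, whereas the EGR proteins are zinc finger factors that bind GC-rich DNA on their own. Induction by a single pulse is brief, and mouse embryonic stem cells make their own FGF4, which acts on ERK when its receptor is not inhibited. The comparison asks which of these genes were high after 48 hr.

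Egr1 was 13.6-fold higher in N2B27 48 hr than in ESC, while Ier3 and Junb were lower. Jund was also lower in the fit, but its probe was detected in ESC alone. The probes of Egr2, Egr3, Fos, Jun, Fosl1 and Ier2 lay at or near background in both groups. A probe was counted as detected where its deposited detection p, the chance of such a signal from negative controls on that array, was under 0.05, and was tested if detected on at least 2 of the 5 arrays. By that measure 28 of the 50 values of the 10 probes were detected. Egr1, Junb and Ier3 were detected on all 5 arrays, and Ier2 on 0. The filter passed 8 members. Of these, 4 changed at a Benjamini-Hochberg adjusted p under 0.05 in limma, 1 upward and 3 downward. Over the 8828 genes tested 45.2% changed, 23.8% upward and 21.4% downward, so the members' share was near the background. The median log2 change was -0.14 over the 8 members and 0.0488 over all genes tested. The groups did not overlap for 6 of the 8, against 65.0% of all genes tested. Jun and Jund entered the test through 1 group alone, so these counts describe the members that passed and support nothing further.

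**Figure D1:**
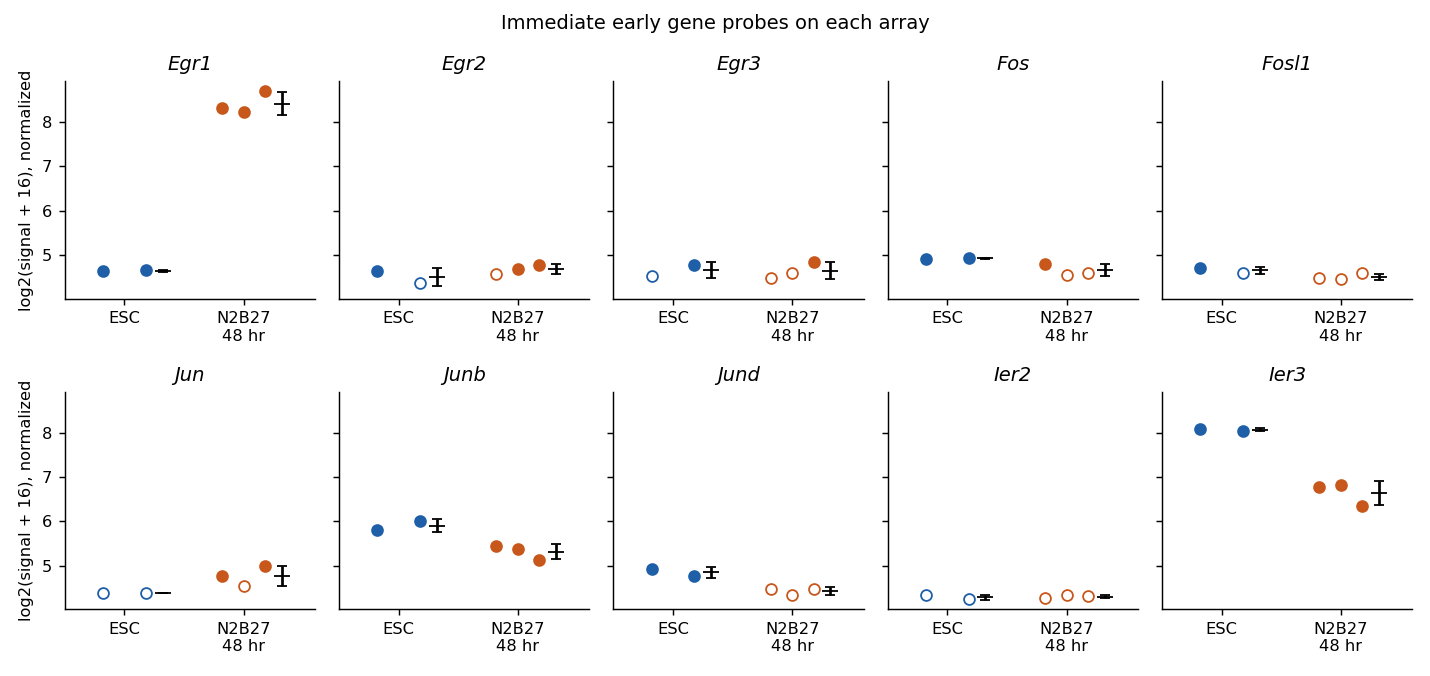
Normalized log2(signal + 16) of the 10 probes on each array, ESC in blue and N2B27 48 hr in orange. Filled points are detected above background (detection p under 0.05) and open points are not. Black bars are the mean ± SD of 2 and 3 arrays. Egr1 lies between 8.22 and 8.70 in N2B27 48 hr and at 4.63 and 4.66 in ESC.

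Levels below are background-corrected, quantile-normalized log2 values of the signal plus an offset of 16, on which a signal at background reads a little above 4. Changes are N2B27 48 hr minus ESC on the same scale, with the standard error (SE) from limma, and understate the change of dim probes. Total signal differed between arrays before normalization, with means of 242 and 264 in ESC and 187 to 250 in N2B27 48 hr, and 42.05% to 47.55% of probes were detected. Naive stem cell markers fell in 6 of 6 genes tested (median -4.44, Nanog from 11.3 to 6.23), and epiblast markers rose in 6 of 6 (median 3.27, Fgf5 at least 30.7-fold). By their brightest probes, Fgf5 was detected in N2B27 48 hr alone, and the naive markers Klf4 and Tbx3 in ESC alone. Each entered the test only through the group where it was high, so its call is not independent support. In RNA from whole cultures, fewer cells making a transcript and less transcript per cell cannot be told apart.

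Among the EGR factors, Egr1 encodes the founding member of the family. It read 4.63 and 4.66 in ESC and 8.32, 8.22 and 8.70 in N2B27 48 hr. The ESC arrays agreed closely and every N2B27 48 hr array was far above them. The log2 change was 3.77 ± 0.159 SE (95% confidence interval 3.42 to 4.12, adjusted p = 2.48e-08, n = 2 and 3). In the deposited signal before any correction, Egr1 read 66.7 and 69.3 in ESC and 268, 340 and 497 in N2B27 48 hr. The ESC signals were 1.80 and 1.79 SD above the mean of the negative controls inferred for their arrays, against 42.0, 55.8 and 84.7 SD in N2B27 48 hr. Thus the ESC level was only just above background, and the fold depends on how background is treated. The ratio of mean background-corrected signals without an offset or normalization between arrays was 32.4 (9.57 in ESC and 311 in N2B27 48 hr). In the authors' normalized table Egr1 read 67.3 and 67.9 against 381, 359 and 482.

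Egr2 and Egr3, zinc finger paralogs of Egr1 that are also induced by growth factors, did not pass the test. Egr2, known for its part in hindbrain segmentation and myelination, read 4.64 and 4.36 in ESC and 4.57, 4.70 and 4.79 in N2B27 48 hr. The groups overlapped, and 3 of the 5 values were detected. Its change was 0.18 ± 0.146 (95% interval -0.14 to 0.50, adjusted p = 0.355). Egr3, known for muscle spindle development, read 4.53 and 4.78 in ESC and 4.49, 4.59 and 4.86 in N2B27 48 hr. The ranges lay on top of each other, with 1 array detected in each group. Its change was -0.0095 ± 0.157 (95% interval -0.36 to 0.34, adjusted p = 0.968). On this scale the intervals leave out a rise as large as that of Egr1 for both probes, but a gene whose probe is near background may change without its probe showing it. With 10 ways to split 5 arrays, an exact two-sided permutation test of a difference between the changes of 2 members cannot give a p below 0.1, so no such difference is called.

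The promoter of Egr2 is shown because it carries the element through which SRF is known to act on immediate early genes. RefSeq sequence of GRCm38.p6, from 250 bases before to 50 after an annotated start, was at hand for 6 members (Egr2, Fos, Jun, Junb, Jund and Ier3). It was searched on both strands for the serum response CArG box, the AP-1 site TGANTCA, the related TGACNTCA, the cAMP response half-site TGACG, the TATA sequence TATAAA, the EGR site GCGNGGGCG, the ETS site CCGGAA and the Sp1 box GGGCGG. TGACNTCA and TGACG can overlap. The CArG box is in 1.64% of the 32544 distinct windows of this length in the table, and TGACG in 20.9%. In the window of Egr2 at chr10:67537619-67537918 (+ strand, 1 of 5 start sites listed), capitals mark a CArG box at -72 to -63 from the start and TGACG sites at -111 and, on the other strand, at -55.
Egr2: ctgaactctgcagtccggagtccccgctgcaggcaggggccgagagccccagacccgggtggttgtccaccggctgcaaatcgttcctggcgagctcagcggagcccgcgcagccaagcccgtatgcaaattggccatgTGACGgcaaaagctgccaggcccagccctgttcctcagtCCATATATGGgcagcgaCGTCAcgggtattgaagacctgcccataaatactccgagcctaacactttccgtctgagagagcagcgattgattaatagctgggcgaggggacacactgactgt
A match is a run of letters and not a measured binding site.

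Fos, the founding partner of JUN in AP-1, was lower on each N2B27 48 hr array than on either ESC array but did not pass the test. It read 4.92 and 4.93 in ESC and 4.81, 4.55 and 4.60 in N2B27 48 hr. Both ESC arrays were detected, at 3.28 and 3.00 SD above the negative controls, and of the N2B27 48 hr arrays only replicate 1. The change was -0.27 ± 0.141 (95% interval -0.58 to 0.042, adjusted p = 0.149). On this scale the interval leaves out a rise of the size seen for Egr1, a gene that shares the SRF route with Fos, with the same limit for a probe near background. Fosl1 encodes FRA1, a FOS-related factor that is itself an AP-1 target. It was detected on ESC replicate 1 alone and was not tested. Its values were 4.71 and 4.60 in ESC and 4.48, 4.46 and 4.59 in N2B27 48 hr, close to each other in both groups. The promoter window of Fos (chr12:85473640-85473939, + strand) is shown for comparison with that of Egr2. Capitals mark TGACG at -129 and -66, the complement of GGGCGG at -74, and TATAAA at -33. TATAAA is in 13.6% of all windows and GGGCGG in 35.9%.
Fos: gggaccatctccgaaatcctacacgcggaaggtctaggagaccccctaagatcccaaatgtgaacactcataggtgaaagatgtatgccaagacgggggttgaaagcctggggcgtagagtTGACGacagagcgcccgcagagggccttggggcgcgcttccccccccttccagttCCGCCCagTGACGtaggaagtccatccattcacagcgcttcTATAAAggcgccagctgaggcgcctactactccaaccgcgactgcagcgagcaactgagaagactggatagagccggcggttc

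Of the JUN family, only Junb was detected on all 5 arrays. Junb encodes a JUN protein that often restrains the activity of c-JUN and is also a LIF-responsive gene in stem cells. It read 5.80 and 6.01 in ESC and 5.45, 5.37 and 5.13 in N2B27 48 hr. All 5 values were well detected, and every ESC array was above every N2B27 48 hr array. Junb fell by 0.59 ± 0.160 (95% interval -0.94 to -0.23, adjusted p = 0.0126). The mean corrected signal without an offset was 50.5 in ESC and 21.5 in N2B27 48 hr, a ratio of 2.35. These signals were not normalized between arrays, which differed in total signal. With normalization and an offset of 1, Junb was 1.81-fold lower. Without ESC replicate 2, the brighter of its ESC arrays, the change was -0.48 and the adjusted p 0.149. Such losses were common when an ESC array was left out, since 5427 probes passed with all arrays and 3108 without ESC replicate 2.

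Jund encodes the JUN protein that is usually present at a steady level in resting cells rather than induced. It read 4.94 and 4.76 in ESC, both detected, and 4.48, 4.34 and 4.48 in N2B27 48 hr, none of them detected. The N2B27 48 hr level is therefore only bounded, and the ESC mean was at least 1.13-fold above it. The fitted change was -0.42 ± 0.136 (adjusted p = 0.0287), but Jund entered the test only through ESC, where it was high, so this p is not independent support for a fall. Leaving out N2B27 48 hr replicate 2, the lowest array, gave -0.38 and an adjusted p of 0.0825. Jun encodes c-JUN, the main AP-1 partner of FOS. It read 4.39 and 4.38 in ESC, neither detected, and 4.76, 4.55 and 4.997 in N2B27 48 hr, of which replicates 1 and 3 were detected. Jun entered the test only through N2B27 48 hr, where its values were the higher ones, and the change of 0.38 ± 0.156 did not pass (95% interval 0.037 to 0.73 before adjustment, adjusted p = 0.0702). It passed in 3 of the 14 alternative settings that tested it, with adjusted p-values from 0.0352 to 0.300 over them, and in 4 more it was not tested. The window of Junb (chr8:84978699-84978998, - strand) is shown as that of an AP-1 gene that fell while well above background. Capitals mark TGACG at -106 and TATAAA at 1 to 6 from the annotated start.
Junb: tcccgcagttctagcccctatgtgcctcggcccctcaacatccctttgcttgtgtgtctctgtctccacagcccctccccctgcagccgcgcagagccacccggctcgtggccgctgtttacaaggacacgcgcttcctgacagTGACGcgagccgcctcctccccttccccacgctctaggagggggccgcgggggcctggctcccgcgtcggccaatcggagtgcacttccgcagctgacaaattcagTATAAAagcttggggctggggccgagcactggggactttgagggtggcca
Jun held TGACATCA, a match to TGACNTCA, at -45 to -38, and that motif is in 8.62% of all windows. The CArG box matched in none of the windows of Fos, Jun, Junb, Jund and Ier3, which says only that these letters are not within the 300 bases.

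**Figure D2:**
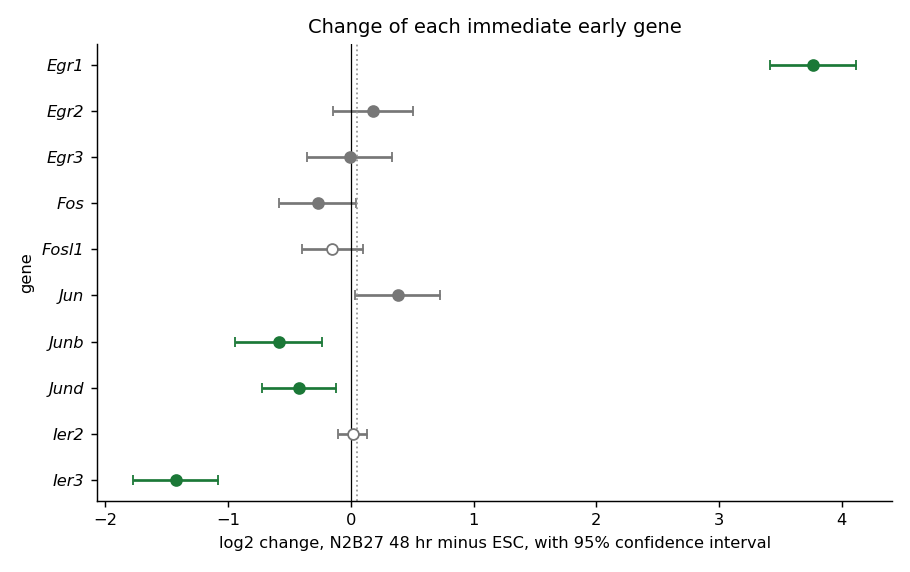
Fitted log2 change, N2B27 48 hr minus ESC, of each gene with its 95% confidence interval (2 and 3 arrays). Green points passed an adjusted p of 0.05 in limma, grey points did not, and open points (Fosl1, Ier2) are from a fit without the detection filter. The dotted line is the median of all genes tested, 0.0488. Egr1 lies at 3.77 and Ier3 at -1.43.

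Of the IER genes, Ier3 had the largest fall among the members. It encodes IEX-1, a regulator of survival and of ERK signalling that is induced by growth factors, stress and NF-kappaB. It read 8.09 and 8.05 in ESC and 6.77, 6.82 and 6.34 in N2B27 48 hr. The ESC arrays differed by less than 0.05 and stood above all N2B27 48 hr arrays. Ier3 was 2.69-fold lower (-1.43 ± 0.157, 95% interval -1.77 to -1.08, adjusted p = 3.38e-05). The probe remained detected on every N2B27 48 hr array, at 12.7 to 19.1 SD above the negative controls. Ier2, which encodes a growth factor-induced nuclear protein, was detected on 0 of 5 arrays. Its deposited signals of 54.4 to 58.3 lay within 1 SD of the negative controls, so these arrays give no level for it. The window of Ier3 (chr17:35821463-35821762, + strand) is shown because Ier3 fell most, and capitals mark the Sp1 box GGGCGG at -96.
Ier3: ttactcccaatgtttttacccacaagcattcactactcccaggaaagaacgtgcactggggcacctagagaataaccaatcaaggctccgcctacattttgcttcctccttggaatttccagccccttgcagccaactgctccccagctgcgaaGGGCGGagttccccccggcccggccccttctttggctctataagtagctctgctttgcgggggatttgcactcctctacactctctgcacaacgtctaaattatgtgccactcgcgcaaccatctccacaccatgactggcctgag

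Within N2B27 48 hr, replicate 3 held the highest values of Egr1, Egr2, Egr3 and Jun and the lowest of Junb and Ier3. Replicate 3 was also the array farthest from ESC for 45.0% of the 2100 genes that rose and 42.6% of the 1889 that fell, so the members share this with many genes. Without it, Egr1 rose by 3.59, Ier3 fell by 1.27 and Junb fell by 0.49, and each passed the test (adjusted p = 0.0201 for Junb, and smaller for the others).

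The genes whose profile over the 5 arrays was nearest to that of Egr1 were Timm21, Dnmt3b, Zyx, Acsl5 and Fzd7. Nearness was the root mean square difference of log2 values, each gene centred on its own mean, among 6743 other genes detected on all arrays. The distances ran from 0.140 for Timm21, a mitochondrial import subunit gene, to 0.183 for Fzd7, a Wnt receptor gene. Dnmt3b, a de novo DNA methyltransferase gene, and Zyx, the gene of the cytoskeletal protein zyxin, lay at 0.147 and 0.170. For Ier3 the nearest were Ccnd3 (0.0490), a G1 cyclin gene, then Gm2a (0.0808), a lysosomal cofactor gene, Tada3 (0.0814), Jak3 (0.0818) and Arhgdib (0.0869). With 2 groups, this measure mostly finds genes with a similar change.

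**Figure D3:**
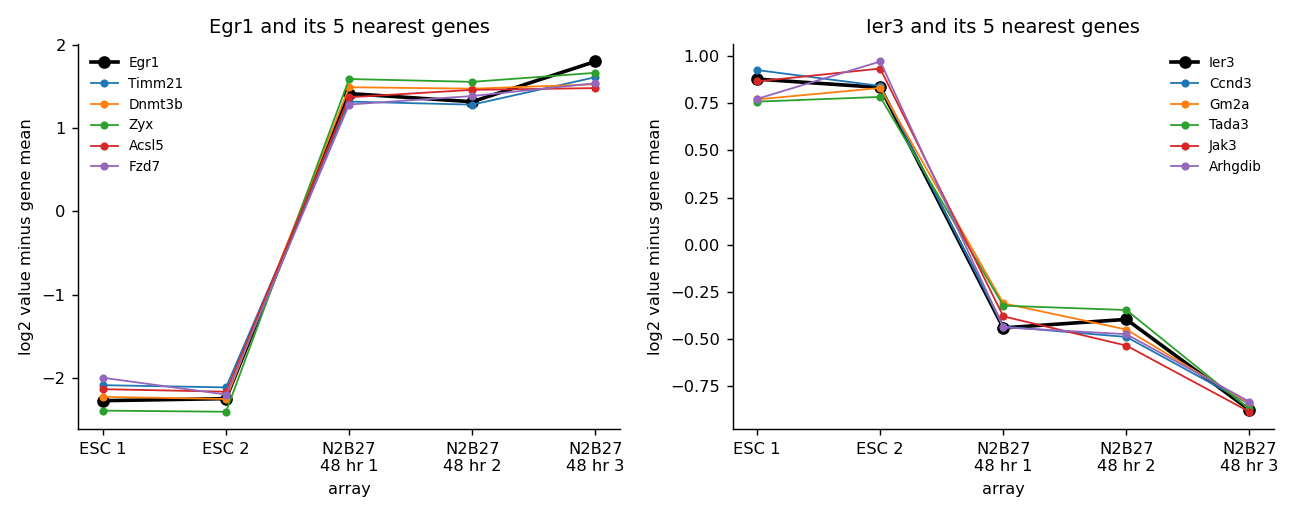
Log2 value minus the gene's mean over the 5 arrays for Egr1 (left) and Ier3 (right), in black, with the 5 nearest genes of each in colour. Lines join the values of 1 gene, and the order of replicates has no meaning. The nearest genes of Egr1 lie within 0.183 and those of Ier3 within 0.0869 (root mean square).

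Relatives of the members were mostly too dim to test. Of 10 other EGR and AP-1 family genes with a probe, 3 were tested, 1 fell and 0 rose (median 0.156). Jdp2, a repressor of AP-1, was at least 1.38-fold lower (adjusted p = 0.00155), with no N2B27 48 hr array detected. Like Jund, Jdp2 entered the test only through ESC, where it was high, so this p is not independent support for a fall. Atf2 and Mafg, partners in AP-1-like dimers, changed by 0.16 and 0.26 and did not pass (adjusted p = 0.321 and 0.171). The EGR corepressor gene Nab1 did not pass by its brightest probe (0.24 ± 0.155, adjusted p = 0.249), whereas another of its probes rose (0.49, adjusted p = 0.0246). Nab2, the other corepressor gene listed, did not pass the detection filter.

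Other immediate early genes went both ways. Among the 19 tested, 8 fell, 5 rose and 6 missed the threshold, which is 68.4% changed against 45.2% of all genes, with a median of -0.129. The largest falls were those of Ccn2, a matricellular gene and target of SRF and YAP (4.16-fold lower, -2.06 ± 0.103, adjusted p = 7.84e-08), and of Gadd45b, a growth arrest and stress gene (at least 2.47-fold lower). Sgk1, a serum-induced kinase gene, and Mcl1, a survival gene of the BCL2 family, were 2.46-fold and 2.16-fold lower. Among the rises were those of Gadd45g (2.27-fold) and of Dusp2, a phosphatase gene that acts on ERK. Dusp2 was not detected in ESC and was at least 1.86-fold higher by its brightest probe, while its other probe rose by 0.49 (adjusted p = 0.0345). Gadd45b was detected in ESC alone. By these probes Gadd45b and Dusp2 each entered the test only through the group where it was high, so their calls are not independent support. Dusp1, a phosphatase gene for several MAP kinases, rose from 7.86 and 7.84 to 8.83, 8.94 and 8.90 (1.04 ± 0.100, adjusted p = 1.23e-05). Zfp36, which encodes the RNA decay factor tristetraprolin, rose by 0.75 ± 0.225 (adjusted p = 0.0199). Its adjusted p was 0.126 under median scaling, 0.109 and 0.0896 without ESC replicates 1 and 2, and 0.0523 and 0.0722 without N2B27 48 hr replicates 1 and 2. In this group 8 genes passed without ESC replicate 1, and likewise without ESC replicate 2.

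Genes above and beside Egr1 in the same route are given next. Of 11 genes of the RAS to ERK cascade tested, 3 rose and 1 fell, or 36.4% against 45.2% of all genes tested (median 0.0694). Nras rose by 0.92 ± 0.0837 (adjusted p = 7.68e-06), and the adaptor genes Gab1 and Shc1 rose by 0.75 and 0.38. Map2k1, which encodes MEK1, was 1.39-fold lower (adjusted p = 0.0428), with an adjusted p of up to 0.304 over the alternatives (without ESC replicate 1). Under median scaling 1 of the 11 rose and 1 fell. Feedback genes of ERK signalling rose in 7 of 9 tested and fell in 0 (median 1.56), where 23.8% of all genes tested rose. Among them were the phosphatase gene Dusp4 (41.8-fold by its brightest probe), the ETS factor gene Etv4 (5.18-fold), Spred1 (4.12-fold) and Dusp6 (3.44-fold, likewise). Dimmer probes of Dusp4 rose by 1.55 and 3.39 on the log2 scale, and those of Dusp6 by 1.66 and 0.825. Etv5 and Spred2 did not pass (adjusted p = 0.218 and 0.334), and 4 of the 13 feedback genes listed were detected on no array. Under median scaling 5 of the 9 feedback genes rose and 0 fell. Spry4, 1 of the 7 that rose, was not detected in ESC. It entered the test only through N2B27 48 hr, where it was high, so its call is not independent support for a rise. Of the feedback genes with a probe detected on all 5 arrays, 6 of 7 rose and 0 fell (median 1.78). Ier3 fell, while Egr1 and most of the tested feedback genes rose. The part of ERK in these changes was not tested.

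Srf, the factor on the serum response element, was 1.72-fold higher by its brighter probe (0.78 ± 0.124, adjusted p = 0.000473) and higher by the other (0.61, adjusted p = 0.0118). Under median scaling its change was 0.55 and the adjusted p 0.146. None of the 4 other genes of this list with a probe, among the ternary complex and MRTF cofactor genes, passed the detection filter. Cytoskeletal targets of SRF rose in 6 of 7 tested and fell in 0 (median 1.11), where 23.8% of all genes tested rose. Among them were Acta2, a smooth muscle actin gene (at least 18.3-fold by the brightest of its 4 probes), Zyx (15.98-fold), Tpm1 (2.35-fold) and Vcl (2.16-fold). The other Acta2 probes changed far less, by 0.856, 1.66 and 0.349 on the log2 scale, and the last did not pass (adjusted p = 0.233). By its brightest probe Acta2 was not detected in ESC and entered the test only through N2B27 48 hr, where it was high. Its call is therefore not independent support for a rise. Actb did not pass (adjusted p = 0.659). These lists were chosen with earlier results of these data known, and their counts are descriptions.

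**Figure D4:**
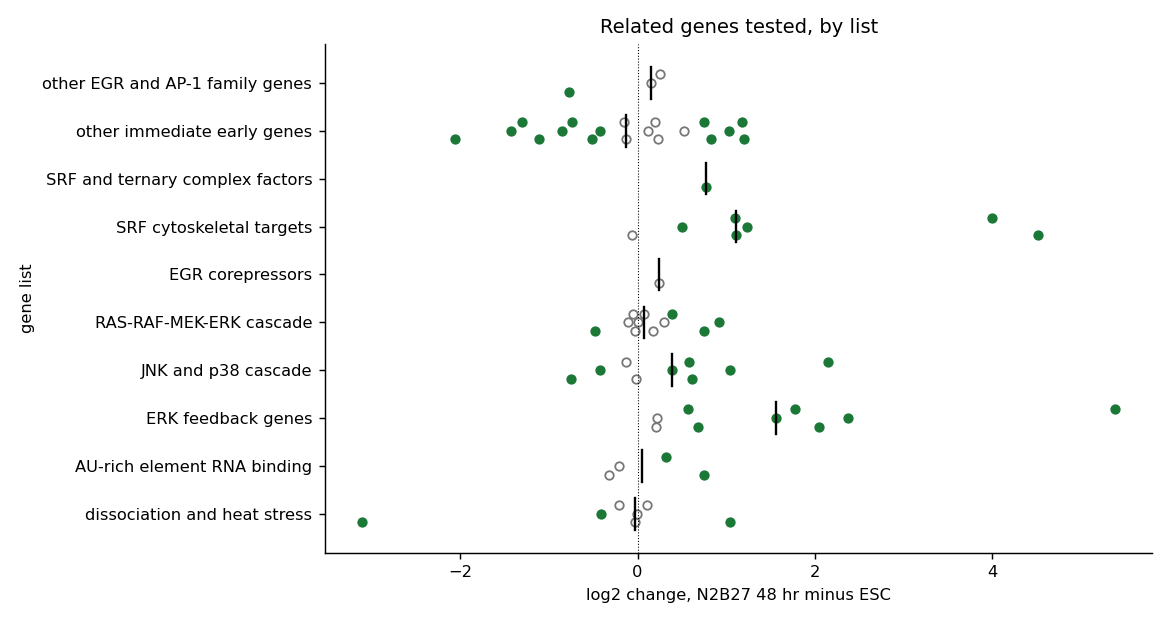
Log2 change, N2B27 48 hr minus ESC, of each tested gene in lists of related genes. Filled green points passed an adjusted p of 0.05, open points did not, and the black bar is the median of the list. ERK feedback genes (median 1.56) and SRF cytoskeletal targets (median 1.11) lie mostly to the right, while other immediate early genes (median -0.129) lie on both sides.

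Markers of other cell types moved in part with these genes. Of 10 fibroblast markers, 3 were tested, Thy1 and Dcn rose and Fbln2 fell. The corrected, normalized signal summed over the 10 was 93.8 to 103 in ESC and 295 to 335 in N2B27 48 hr, and 5 of the 10 were detected on 0 arrays. The rise of this sum was mostly that of Thy1, which read 5.71 and 5.48 in ESC and 8.05, 7.81 and 7.82 in N2B27 48 hr. Dcn was undetected in ESC and Fbln2 in N2B27 48 hr. Each of these 2 entered the test only through the group where it was high, so its call is not independent support. Of 7 neural markers with a probe, 5 were detected on 0 arrays, with sums of 103 to 107 and 85.8 to 134. Sums over 8 endoderm markers were 46.9 to 53.1 and 67.2 to 88.4, and 6 of the 8 were detected on 0 arrays. Of the 2 tested, Sox7 did not pass (adjusted p = 0.247) and Dab2 rose by 0.93 (adjusted p = 0.00358). Another probe of Dab2 rose by 0.75 (adjusted p = 0.0115). The rise of the endoderm sum was mostly that of Dab2. The part of such cells in the changes of the members was not tested.

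**Figure D5:**
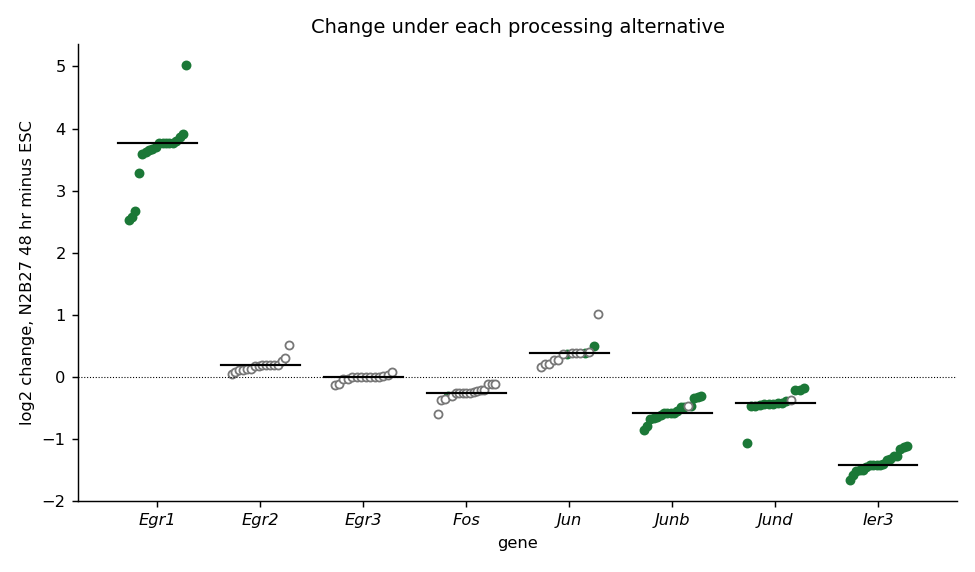
Log2 change, N2B27 48 hr minus ESC, of the 8 tested members under each processing alternative (14 to 18 per gene). Filled green points passed an adjusted p of 0.05, open points did not, and the black line is the value reported. Egr1 ranges from 2.53 to 5.03 and Ier3 from -1.67 to -1.12, and both passed throughout.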

How the data were processed

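Total RNA was extracted with Trizol and turned into biotin-labelled cRNA with an Illumina TotalPrep kit, per the labels' protocols. The first deposited table gives a signal intensity and a detection p-value for each probe on each array, per the file headers, from BeadStudio per the submitters' processing notes. No version is stated. The intensity is linear and not normalized between arrays. The other deposited table gives intensity for the same arrays as normalized by the authors, by an unstated method. Its array medians were 65.2 to 65.3.

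Background was corrected with limma 3.58.1 (R 4.3.3) by normexp, inferring negative controls from detection p-values (nec) (mean 57.0 to 60.0, SD 5.03 to 5.21). An offset of 16 was added before log2, and arrays were quantile normalized. Of 25697 probes, 12605 with a detection p under 0.05 on at least 2 arrays were fitted (lmFit, eBayes with trend, two-sided). Benjamini-Hochberg adjustment ran over all of these, at a threshold of 0.05. Precision is limited by the number of arrays. The median SE of a log2 change was 0.145. The fit was also run on simulated normal values without a background floor, normalization or detection filter, so that run could not test those steps.

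Symbols came from the platform annotation (23978 probes with 1 symbol, 1719 with none), updated by Entrez ID through RefSeq names of GRCm38.p6 (23962 matched). A gene was represented by its brightest tested probe. Where a probe was undetected on arrays of the lower group, the fold is a bound against the higher of its value and the lowest detected value on each array. A gene detected in 1 group alone entered the test only through that group, so its call is not independent support for its change. The members and lists were chosen with earlier results of these data known. The rule for names took all members, the 5 nearest genes, and per list up to 4 called genes by size plus up to 2 moving oppositely. Other genes named were chosen after their values were seen. Probe positions and sequences were not used here. Alternatives changed background, offset, normalization, source table, filter, arrays, block, variance trend and weights. Figures used matplotlib 3.10.9.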

Additional observations from a re-analysis of the deposited data

How the results depend on the processing

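The rise of Egr1 and the fall of Ier3 kept direction and call in all 18 alternatives, and the call of Junb in 17 of 18. Jund passed in 13 of the 14 that tested it and was not tested in the other 4 (detection p under 0.01, detection on all 5 arrays, and without ESC replicate 1 or 2). The exceptions among tested settings, Junb without ESC replicate 2 and Jund without N2B27 48 hr replicate 2, are given with these genes. Sizes followed the offset and background correction, and over all alternatives Egr1 ran from 2.53 to 5.03, Ier3 from -1.67 to -1.12, Junb from -0.86 to -0.32 and Jund from -1.08 to -0.18, the largest size of Egr1, Junb and Jund being with an offset of 1. Egr2 did not pass in any of 16 alternatives. Egr3, never past the test, changed sign under median scaling (0.0014), cyclic loess (0.030), and without N2B27 48 hr replicate 1 (0.075) or 2 (0.017). With single arrays left out it ran from -0.13 to 0.075. Fos passed only with array weights (adjusted p = 0.0482). Jun passed under normexp without control information, median scaling and without N2B27 48 hr replicate 2 (adjusted p = 0.0486, 0.0446 and 0.0352), so that 2 members rose in each. Leaving out 1 array at a time, 2 to 4 members changed, 1 to 2 upward and 1 to 3 downward, and 3108 to 5760 probes passed, 1727 to 3077 upward and 1381 to 2683 downward. Without an ESC array, probes detected in ESC alone could not pass the filter, and the spread of the remaining array was taken from the other group. Under median scaling 3540 probes passed, 1061 of them upward, and 29.7% of the changed genes rose, against 52.6%. The median of all genes moved from 0.0488 to -0.106, and relative to it Egr1 changed by 3.75, Junb by -0.69, Jund by -0.36 and Ier3 by -1.56. With the replicate number as a block, Egr1 rose by 3.62 and Ier3 fell by 1.27. The numbers are not stated to pair the samples (correlations of same-numbered deviations -0.085 and -0.0275), and the block changed no member's call. Each member had 1 probe, so no other probe could be tried. Signal near background limits what can be said of Egr2, Egr3, Fos, Jun, Jund, Fosl1 and Ier2.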

Other observations

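Genes of the JNK and p38 cascades, which act on JUN and on stress-induced immediate early genes, changed in 7 of 9 tested, 5 upward and 2 downward (median 0.390). This is 77.8%, against 45.2% of all genes tested. Mapk12, a p38 kinase gene, was 4.42-fold higher (2.14 ± 0.184, adjusted p = 5.09e-06), and all 3 of its probes rose. The JNK scaffold gene Mapk8ip1 rose 2.07-fold. Mapk8, which encodes JNK1, rose by 0.59 and Mapk9, which encodes JNK2, fell by 0.42 by its brightest probe, while its other probes did not pass. Map2k3, a p38 activator gene, fell by 0.75. Under median scaling 2 rose and 1 fell.

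Among heat and dissociation stress genes 1 of 7 rose and 2 fell (median -0.0287), or 42.9% changed, near the 45.2% of all genes tested. Hspb1, a small heat shock protein gene, read 10.3 on both ESC arrays and 7.79, 7.70 and 6.21 in N2B27 48 hr, and fell by 3.10 ± 0.363 (adjusted p = 5.31e-05). Ddit3, a stress-induced C/EBP factor gene, rose 2.06-fold, and Hspa8 did not pass by its brightest probe (adjusted p = 0.988), while its other probe fell by 0.216 on the log2 scale (adjusted p = 0.0413). Of 4 genes for proteins that bind AU-rich elements, which destabilise immediate early transcripts, Zfp36 and Elavl1 rose and 0 fell, and neither passed under median scaling. Of 8 trophectoderm markers 4 were tested, 2 rose and 1 fell. Krt8 rose by 2.08 (adjusted p = 2.23e-06), and Tfap2c fell by 4.67, from a mean of 10.2 to 5.54 (adjusted p = 5.42e-10). Krt18, undetected in ESC, was at least 3.61-fold higher (adjusted p = 1.6e-06). It entered the test only through N2B27 48 hr, where it was high, so its p is not independent support for a rise. The signal summed over the 8 trophectoderm markers was 1220 to 1240 in ESC and 297 to 355 in N2B27 48 hr. In ESC this sum was mostly Tfap2c, which read 10.2 there, against 5.54 for Krt8 and 4.45 for Krt18. The fall of the sum is thus that of Tfap2c, and Krt8 and Krt18 went the other way. Of 7 mesoderm markers with a probe 4 were tested, 0 rose and 2 fell, Gsc at least 5.31-fold (adjusted p = 1.45e-07) and Evx1 by 0.59 (adjusted p = 0.00645). Gsc was detected in ESC alone and entered the test only through it, so the same limit holds for its p. The signal summed over the 7 mesoderm markers was 177 to 183 in ESC and 51.0 to 58.2 in N2B27 48 hr. In ESC this sum was mostly Gsc, which read 7.09 there, against 5.49 for Evx1.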
